A study of Mus musculus with 12 samples.

Results

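Endothelins and angiotensin II are short peptides that constrict vessels and act on heart muscle through receptors coupled to G proteins. Each is cut from a longer precursor: preproendothelin is processed to big endothelin and then trimmed by the endothelin-converting enzyme, and angiotensinogen is cut by renin to angiotensin I and then by the angiotensin-converting enzyme to angiotensin II. In the heart, endothelin 1 is made chiefly by endothelial and endocardial cells, its receptor A lies mostly on muscle cells, pericytes and fibroblasts, and receptor B is best known on endothelial cells. The 8 genes described here are 2 ligands of the endothelin system (Edn1 and Edn3), its converting enzyme (Ece1) and its receptors (Ednra and Ednrb), together with angiotensinogen (Agt), the angiotensin-converting enzyme (Ace) and the type 1a angiotensin receptor (Agtr1a). They were taken by symbol from the 53700 genes of the count table. In the NCBIM37 annotation Edn1 (42396639 to 42403358) and Agtr1a (30428310 to 30474736) lie on chromosome 13, Ednra (80186930 to 80248363) and Agt (127080434 to 127093606) on chromosome 8, Edn3 (174586120 to 174609543) on chromosome 2, Ece1 (137418152 to 137521144) on chromosome 4, Ace (105829259 to 105851278) on chromosome 11 and Ednrb (104213842 to 104243390) on chromosome 14. They were chosen by the measured difference itself, because the Edn1 level was higher in knockout than in control hearts, so the difference between the groups is given for them as a description: no p-value is printed for any of the 8 genes on this contrast, and nothing is read from how many pass a threshold.

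RNA-seq was performed on whole hearts of male mice from 2 groups of 6. The ac-WT controls were CYB5R3wt/wt and the ac-CYB5R3-KO mice were CYB5R3fl/fl. Both groups carried Myh6-CreERT2, a Cre recombinase that the cardiomyocyte promoter Myh6 drives and that tamoxifen switches on, so CYB5R3 was deleted in cardiomyocytes and remained intact in endothelial, endocardial and stromal cells. Both groups received tamoxifen at 33 mg/kg/d for 5 days, starting at 10 to 13 weeks of age, on a background backcrossed 3 times to C57BL/6J, and hearts were taken 5 days after the injections. CYB5R3, or cytochrome b5 reductase 3, is an enzyme that reduces heme and quinone acceptors.

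The libraries held 43393183 to 53754284 counts each, and 17847 genes passed the filter on low counts. Levels are given in CPM, the counts of a gene relative to the library's total, scaled by TMM, a factor per library that sets most genes level between libraries. The controls were less uniform than the knockouts: the TMM factors of ac-WT hearts 2 and 3 were 0.570 and 0.723, against 0.988 to 1.22 in the other 10 hearts. Cyb5r3 itself checked the labels. It went from 125.5 ± 38.4 CPM (SD, n = 6) in the controls to 53.8 ± 9.07 CPM in the knockouts, without overlap (log2 fold change -1.22, SE 0.19, edgeR quasi-likelihood adjusted p = 0.0450). The direction held in every other fit, but the adjusted p ran from 1.36e-06 (DESeq2) to 0.315 (edgeR with total counts in place of TMM). The heart markers were present, with the summed level of 6 cardiomyocyte genes at 11240 to 24450 CPM in ac-WT and 8226 to 13900 CPM in ac-CYB5R3-KO hearts. In whole hearts, fewer cells of a type and less RNA per cell cannot be told apart.

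The stretches that encode the mature peptides show how close the ligands are. Endothelin 1 is encoded by codons 53 to 73 of Edn1, in exon 2 of 5 on the plus strand at chr13:42399018-42399080 (NCBIM37), and endothelin 3 by codons 97 to 117 of Edn3, in exon 2 of 5 on the plus strand at chr2:174587250-174587312. Capitals mark the bases at which the pair differ.
Edn1: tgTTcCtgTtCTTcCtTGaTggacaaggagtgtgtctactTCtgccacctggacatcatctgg
Edn3: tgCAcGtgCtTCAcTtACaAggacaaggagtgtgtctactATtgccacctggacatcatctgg
Of 63 bases, 13 differed (79.4% identical), which changed 8 of 21 codons and 6 of the 21 residues, most of them in the first part of the peptide, while the tail of the peptide, known to be needed for receptor binding, was encoded by identical bases. Angiotensin I is encoded by codons 30 to 39 of Agt, in exon 2 of 5 on the minus strand at chr8:127088350-127088379. Capitals mark the last 2 codons, whose residues the angiotensin-converting enzyme removes to make angiotensin II.
Agt: gaccgcgtatacatccaccccttcCATCTC

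For the record of the fit, 2 of the 8 genes were under an unadjusted p of 0.01 in edgeR, Edn1 (higher in ac-CYB5R3-KO hearts) and Ednra (lower), where 4.59% of all genes were, 1.33% higher and 3.27% lower. Under an unadjusted p of 0.05 there were 5 (14.6% of all genes). Under an adjusted p of 0.05 there were 0 in edgeR and limma-voom (0.101% of all genes in edgeR) and 2 in DESeq2, Edn1 and Ednra. These counts come from the contrast on which the genes were picked, so they support nothing about them. Only Edn1 of the 8 had groups that did not overlap, against 1.55% of all genes (0.51% higher and 1.04% lower in the knockouts). The median log2 fold change was 0.07 over the 8 genes and -0.01 over all 17847 genes.

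**Figure D1:**
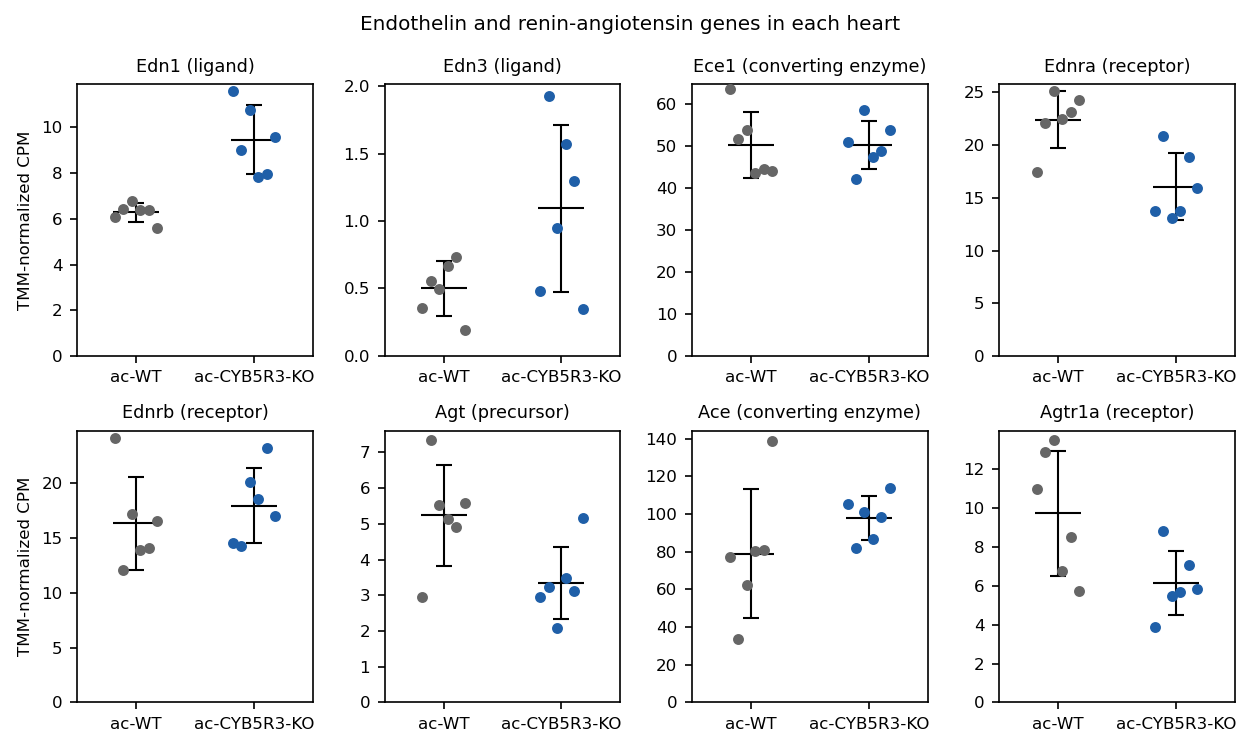
Level of each of the 8 genes in every heart, in TMM-normalized CPM on axes that start at 0; each point is 1 heart, the long bar is the mean and the whiskers are the SD of 6 hearts. For Edn1 the 6 ac-CYB5R3-KO hearts, at 7.82 to 11.6 CPM, lay above all ac-WT hearts, and for the other 7 genes the groups overlapped.

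Edn1 (ENSMUSG00000021367) encodes endothelin 1, the main vasoconstrictor endothelin of the heart. Its level was 5.59 CPM in the lowest, 6.40 CPM in the median and 6.80 CPM in the highest ac-WT heart, and 7.82, 9.31 and 11.6 CPM in the corresponding ac-CYB5R3-KO hearts. Every knockout heart was above every control. The mean went from 6.28 ± 0.409 CPM (SD, n = 6) to 9.46 ± 1.51 CPM, which is 50.6% higher, with a log2 fold change of 0.59 (SE 0.11, 95% interval 0.35 to 0.84). The raw counts were 184 to 322 in ac-WT and 399 to 637 in ac-CYB5R3-KO libraries, so they did not overlap before any scaling either. Scaled to total counts alone, the level was 3.66 to 7.21 CPM in controls and 8.14 to 13.2 CPM in knockouts, and the log2 fold change was 0.87, at a median over all genes of 0.26.

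How much the hearts of a group differed in Edn1 depended on the scaling. With TMM, the coefficient of variation (SD over mean) of Edn1 was 6.50% in ac-WT hearts, and 1.49% of all tested genes varied less there, where the median gene varied by 24.9%. In ac-CYB5R3-KO hearts Edn1 then varied by 15.96%, near the median gene's 15.7%. With total counts the order of the groups turned: Edn1 varied by 22.3% in ac-WT hearts, where 19.8% of genes varied less, and by 18.3% in ac-CYB5R3-KO hearts.

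Edn3 (ENSMUSG00000027524), which encodes endothelin 3, the ligand best known for neural crest development and for its preference for receptor B, was rare. It had 10 to 36 counts in ac-WT and 17 to 112 counts in ac-CYB5R3-KO libraries. The lowest, median and highest levels were 0.190, 0.529 and 0.737 CPM in ac-WT hearts and 0.346, 1.12 and 1.93 CPM in ac-CYB5R3-KO hearts. Knockout hearts 2, 3, 4 and 5 were above all controls, whereas knockout hearts 1 and 6 lay among them. The log2 fold change was 1.13 (SE 0.42, 95% interval 0.23 to 2.04), the widest interval of the 8 genes. Among the knockouts, the heart with the most Edn1 was not the one with the most Edn3. Knockout heart 1 had the highest Edn1, 11.6 CPM, and 0.478 CPM of Edn3. Knockout heart 2 had the highest Edn3, 1.93 CPM, and 9.03 CPM of Edn1. Over the knockouts alone Edn1 and Edn3 correlated at r = -0.625, but over the controls alone at r = 0.823.

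Ece1 (ENSMUSG00000057530) encodes the membrane protease that makes the active peptides from big endothelins. Its lowest, median and highest levels were 43.7, 48.2 and 63.6 CPM in ac-WT and 42.2, 49.8 and 58.7 CPM in ac-CYB5R3-KO hearts. The ranges lay almost on top of each other, with means of 50.28 ± 7.82 and 50.27 ± 5.63 CPM. The 95% interval of the log2 fold change, -0.25 to 0.25, bounds the difference at this depth. With total counts in place of TMM the log2 fold change was 0.29, close to the 0.26 by which that scaling moved the median gene.

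Ednra (ENSMUSG00000031616) encodes receptor A, through which endothelin 1 contracts smooth muscle and stimulates cardiomyocytes. Its lowest, median and highest levels were 17.5, 22.8 and 25.1 CPM in ac-WT and 13.1, 14.9 and 20.9 CPM in ac-CYB5R3-KO hearts. All 6 knockouts were below the control median and 4 of them below the lowest control, heart 1. The mean went from 22.4 ± 2.67 to 16.1 ± 3.19 CPM, a log2 fold change of -0.48 (SE 0.13, 95% interval -0.77 to -0.20). With total counts it was -0.22, still below the median gene. It was -0.43 both without ac-CYB5R3-KO heart 4 and without ac-WT hearts 2 and 3. For the record of the fits, Ednra was no longer under an unadjusted p of 0.01 in any of these. A gene on the opposite strand, 4933431K23Rik, overlaps Ednra and held up to 115 counts in a library, against 632 to 1278 for Ednra.

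Ednrb (ENSMUSG00000022122) encodes receptor B, which on endothelial cells releases nitric oxide and clears endothelin 1. Its lowest, median and highest levels were 12.1, 15.3 and 24.2 CPM in ac-WT and 14.3, 17.8 and 23.3 CPM in ac-CYB5R3-KO hearts. The groups overlapped almost fully, and the highest heart of all was control heart 1. The log2 fold change was 0.13 (SE 0.17, 95% interval -0.23 to 0.50). It ran from 0.05 (without ac-CYB5R3-KO heart 5) to 0.28 (without ac-WT heart 1) with single hearts left out, and was 0.38 with total counts.

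Agt (ENSMUSG00000031980) encodes angiotensinogen, the precursor of the angiotensin peptides, most of which comes from the liver in the whole animal. Its lowest, median and highest levels in the heart were 2.94, 5.32 and 7.34 CPM in ac-WT and 2.08, 3.18 and 5.15 CPM in ac-CYB5R3-KO hearts. All 6 knockouts were below the control median, but control hearts 1, 4 and 5, at 2.94, 5.12 and 4.91 CPM, lay within the knockout range. The log2 fold change was -0.65 (SE 0.23, 95% interval -1.13 to -0.17), and -0.46 without ac-WT hearts 2 and 3. With total counts it was -0.35, at a median over all genes of 0.26. Liver RNA was scarce: albumin (Alb) had no counts in any ac-CYB5R3-KO library and at most 25 in an ac-WT library.

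Ace (ENSMUSG00000020681) encodes the angiotensin-converting enzyme, a protease on the endothelial surface that also breaks down bradykinin. Its lowest, median and highest levels were 33.8, 79.0 and 138.9 CPM in ac-WT and 82.2, 99.8 and 114.0 CPM in ac-CYB5R3-KO hearts. Control hearts 1 to 5, at 33.8 to 80.7 CPM, lay below all knockouts, and control heart 6, at 138.9 CPM, lay above all of them. The coefficient of variation was 43.5% in controls against 12.1% in knockouts. The log2 fold change was 0.31 (SE 0.24, 95% interval -0.21 to 0.83). It was 0.07 without ac-WT hearts 2 and 3 and turned to -0.04 with 1 surrogate variable, an unlabelled axis of variation estimated from the data, in the model. With single hearts left out it ran from 0.17 (without ac-WT heart 2) to 0.55 (SE 0.20, without ac-WT heart 6), and with total counts it was 0.48.

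Agtr1a (ENSMUSG00000049115) encodes the main angiotensin II receptor of rodents. Its lowest, median and highest levels were 5.75, 9.73 and 13.5 CPM in ac-WT and 3.91, 5.77 and 8.84 CPM in ac-CYB5R3-KO hearts. Control hearts 1, 2 and 3 held the highest levels and stood above all knockouts, whereas controls 4, 5 and 6 lay within the knockout range. The log2 fold change was -0.66 (SE 0.23, 95% interval -1.16 to -0.16), -0.37 without ac-WT hearts 2 and 3, and -0.24 with 1 surrogate variable. With total counts it was -0.31, at a median over all genes of 0.26. Its near copy Agtr1b had 0 counts in all ac-WT and at most 2 in ac-CYB5R3-KO libraries, and how reads shared by the pair were assigned is not given in the sources used here.

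**Figure D2:**
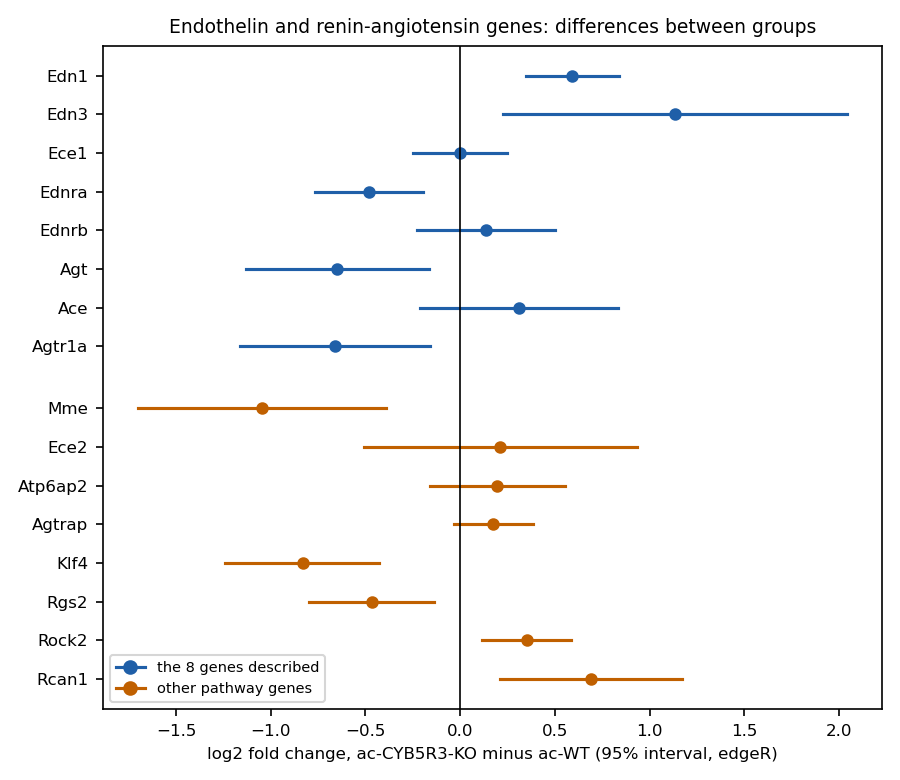
Log2 fold change (ac-CYB5R3-KO minus ac-WT) from edgeR, with 95% intervals, of the 8 genes described (blue) and of 8 other genes of the pathways (orange), 6 hearts per group. The intervals of Edn1 and Edn3 lay above 0, those of Ednra, Agt and Agtr1a below it, and those of Ece1, Ednrb and Ace spanned it. The 8 genes were chosen on this contrast, so where their intervals lie is a description and not a test.

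Per length of exon, the converting enzymes were the most abundant and Edn3 was the least. The ac-WT means, in CPM per kb, were 14.9 for Ace, 9.49 for Ece1, 4.10 for Ednra, 4.05 for Ednrb, 3.94 for Agtr1a, 2.77 for Agt, 2.68 for Edn1 and 0.122 for Edn3. Neighbours in this order were compared within the 6 ac-WT hearts by an exact two-sided sign-flip permutation test, whose smallest possible p is 0.03125. Ece1 was above Ednra and Edn1 above Edn3 in 6 of 6 hearts, both at that smallest exact p (adjusted over 7 pairs, 0.109). The other 5 pairs had exact p from 0.0938 to 0.969, and Ednra, Ednrb and Agtr1a, like Agt and Edn1, were not separated beyond their spread between hearts. No neighbour pair passed an adjusted p under 0.05 in this design.

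In ac-CYB5R3-KO hearts the order of the mid-level genes was another. Their means were 18.5 CPM per kb for Ace and 9.49 for Ece1, followed by 4.45 for Ednrb, 4.04 for Edn1, 2.93 for Ednra, 2.49 for Agtr1a, 1.76 for Agt and 0.266 for Edn3. Edn1 thus came below Agt and all the receptors in the controls, though level with Agt within hearts (Agt the higher in 3 of 6), and above all of them but Ednrb in the knockouts. The place of Edn1 depended on the length used. Per kb of coding sequence, Edn1 was already above Agtr1a and Agt in the controls (10.4 against 9.03 and 3.62 CPM per kb) and above all the receptors in the knockouts. Per kb of exon Edn1 exceeded Edn3 by 15.3- to 51.8-fold in the controls and by 8.23- to 48.6-fold in the knockouts, so endothelin 1 transcripts were the more abundant in all 12 hearts.

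Ratios of 2 genes within a heart do not depend on how the library was scaled, but their size depends on the lengths used, here those of the exons. The Ednra to Ednrb ratio per kb was 0.533 to 1.35 in ac-WT hearts (median 1.13) and 0.479 to 1.08 in ac-CYB5R3-KO hearts (median 0.646). Receptor A was thus the more abundant in 5 of 6 controls and in 1 of 6 knockouts, with control heart 1 and knockout heart 2 on the other side of 1. Per kb of coding sequence those counts were again 5 and 1, with medians of 1.59 and 0.907. Within the controls the ratio was not distinguishable from 1 (exact sign-flip permutation p = 0.875, n = 6).

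The Ednrb to Agtr1a ratio per kb was 0.571 to 1.77 in ac-WT hearts (median 1.14) and 0.988 to 2.27 in ac-CYB5R3-KO hearts (median 2.01). Per kb of exon, knockout heart 2 was the only knockout below 1, and the groups overlapped. Per kb of coding sequence all 6 knockouts were above 1, at 1.31 to 3.02, beside 0.759 to 2.35 in the controls. The Edn1 to Agt ratio per kb was 0.707 to 1.67 in controls and 1.502 to 4.18 in knockouts, an overlap of control heart 1 with knockout heart 6 alone. The Ace to Ece1 ratio per kb of exon was 1.73 to 2.13 in the knockouts, a narrow range beside 0.653 to 3.15 in the controls. Per kb of coding sequence it was 0.954 to 1.18 and 0.361 to 1.74, so which enzyme was the more abundant depended on the length used.

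**Figure D3:**
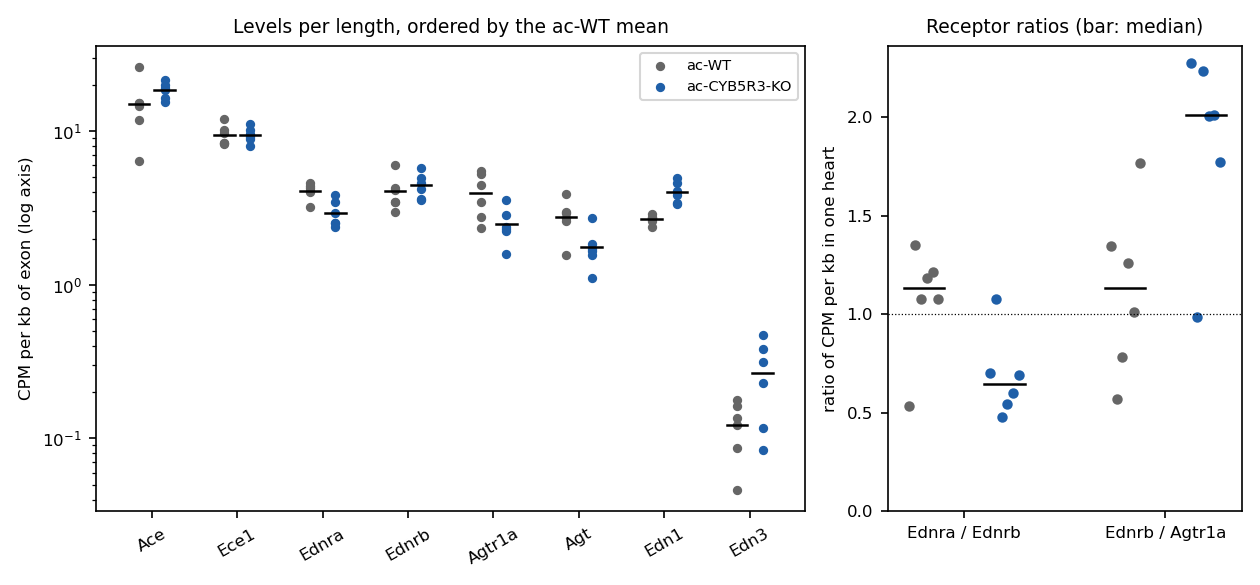
Left, level of each gene per kb of exon on a log axis, in the order of the ac-WT means; right, ratio of Ednra to Ednrb and of Ednrb to Agtr1a in each heart. Points are single hearts, and bars are means on the left and medians on the right; the median Ednra to Ednrb ratio was 1.13 in ac-WT and 0.646 in ac-CYB5R3-KO hearts.

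Within a group, hearts high in one of the 8 genes were not in general high in the others. Over the deviations of the 12 hearts from their group means, 10 of the 28 pairs of genes correlated positively, with a median r of -0.15. The pairs share libraries and scaling, so these values describe the hearts only. The highest was Ednrb with Ece1 (r = 0.57), both known on endothelial cells, and the lowest was Ace with Agtr1a (r = -0.71). Edn1 correlated at r = 0.35 with Ece1, -0.29 with Edn3, -0.31 with Ednra and -0.36 with Ednrb. In the groups taken apart, Edn1 with Edn3 was at 0.823 in controls and -0.625 in knockouts, and with Ednra at 0.209 and -0.456. The sign thus differed between the groups for Edn3 and Ednra, but not for Ece1 and Ednrb.

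The genes whose levels most resembled those of Edn1 over the 12 hearts were Smoc1 (r = 0.88), Gt(ROSA)26Sor (r = 0.87), Fam19a5 (r = 0.87), Igfbp2 (r = 0.87) and ENSMUSG00000116165 (r = 0.85). The difference between the groups carries much of each value. Within the groups r was 0.51 for Smoc1, which encodes a secreted calcium-binding matrix protein, 0.14 for Gt(ROSA)26Sor, a noncoding transcript, 0.48 for Fam19a5, 0.36 for Igfbp2, which binds insulin-like growth factors, and 0.60 for ENSMUSG00000116165. With total counts in place of TMM, 1 of the 5, Fam19a5, was still among the 5 genes most like Edn1.

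Since Edn1 is known from endothelial and endocardial cells, their markers are given beside it. The summed level of 8 endothelial markers, among them Pecam1 and Cdh5, was 430.1 to 832 CPM in ac-WT and 412 to 749 CPM in ac-CYB5R3-KO hearts, and 0 of the 8 passed an unadjusted p under 0.01 in edgeR. The 4 endocardial markers summed to 33.9 to 47.4 CPM in ac-WT and 45.0 to 72.1 CPM in ac-CYB5R3-KO hearts, with Npr3 (log2 fold change 0.57) and Plvap (0.79) higher at that threshold, Cytl1 at -0.12 and Hapln1 at 5 counts or fewer in any library. Relative to the endocardial sum, log2 Edn1 averaged -2.67 in ac-WT and -2.70 in ac-CYB5R3-KO hearts, a difference of -0.03. Relative to the endothelial sum the difference was 0.56, with 3 of 6 knockouts above all controls. The endocardial sum was thus higher together with Edn1, the endothelial sums of the groups overlapped, and the part of either in the Edn1 result was not tested.

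**Figure D4:**
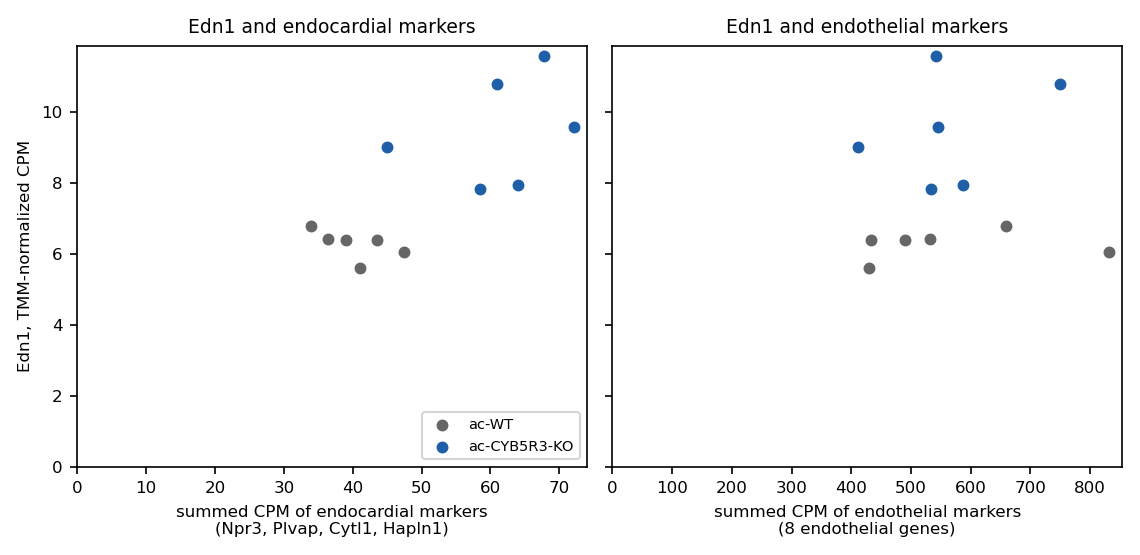
Edn1 in TMM-normalized CPM against the summed CPM of endocardial markers (left) and of endothelial markers (right), 1 point per heart, both axes from 0. The ac-CYB5R3-KO hearts lay to the upper right of the ac-WT hearts on the left, with the lowest knockout at 45.0 CPM of endocardial markers and the highest control at 47.4, and above them without a shift to the right on the right.

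Markers of the cells that carry the receptors overlapped between the groups. The 5 smooth muscle markers summed to 90.6 to 190 CPM in ac-WT and 74.8 to 116 CPM in ac-CYB5R3-KO hearts, with 1 of 5 lower at an unadjusted p under 0.01. The 5 pericyte markers summed to 297 to 421 and 270.2 to 409 CPM, with none of 5 at that threshold. Relative to the smooth muscle sum, log2 Ednra differed by -0.26 between the groups and log2 Agtr1a by -0.40, and relative to the pericyte sum by -0.34 and -0.48. Relative to the cardiomyocyte sum, with medians of 13830 CPM in controls and 11450 CPM in knockouts, they differed by -0.05 and -0.19. That sum was 24450 and 21950 CPM in ac-WT hearts 2 and 3 and 11240 to 14420 CPM in the other controls. Fibroblast markers summed to 922 to 3712 CPM in ac-WT and 2224 to 3413 CPM in ac-CYB5R3-KO hearts, the lower end of the controls lying under all knockouts, and relative to that sum log2 Ednra differed by -0.92 and log2 Agtr1a by -1.06. The fibroblast sum was 929.5 and 922 CPM in ac-WT hearts 2 and 3 and 2484 to 3712 CPM in the other controls. Both comparisons include these hearts and were not recomputed without them. The part of these cells in the receptor values was not tested.

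The other genes of both pathways were measured from lists of 84 genes, of which 70 passed the filter. At an unadjusted p under 0.01 in edgeR 2 of the 70 were higher and 3 lower, which is 7.14% against 4.59% of all genes, and the median log2 fold change was 0.02. None passed an adjusted p under 0.05 in edgeR, where 14 had an unadjusted p under 0.05, or in limma-voom, and DESeq2 called 2, Mme and Klf4.

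Of the other endothelin genes, the ligand Edn2 stayed at or below 6 counts and the protease gene Kel at or below 9, and neither was tested. Mme, which encodes neprilysin, a protease that degrades endothelins, angiotensins and natriuretic peptides, was lower, at 2.01 ± 0.671 CPM among controls and 0.966 ± 0.368 CPM among knockouts (n = 6 each, SD), and 3 knockouts were below all controls. Its log2 difference was -1.05 (SE 0.30, adjusted p = 0.188 in edgeR). The second converting enzyme, Ece2, was rare, with 5 to 22 counts, and differed by 0.21 on the log2 scale (SE 0.34, adjusted p = 0.787 in edgeR).

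Of 14 other angiotensin-processing genes, 12 were tested and 0 of them passed an unadjusted p under 0.01 in edgeR. Renin (Ren1), which starts the cascade, had 0 counts in all 12 libraries and so was not detectable at this depth. The prorenin receptor gene Atp6ap2 differed by 0.20 on the log2 scale (SE 0.17, adjusted p = 0.590 in edgeR). The chymase gene Cma1 is on this list and among the 5 mast cell markers, of which 2 were lower at an unadjusted p under 0.01.

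Of the other angiotensin receptor genes, Agtr2 never exceeded 2 counts, and Mas1, the angiotensin 1-7 receptor, was under the filter, with 1 to 94 counts in ac-WT and 1 to 9 in ac-CYB5R3-KO libraries. Agtrap, whose product binds the type 1 receptor and promotes its internalization, differed by 0.18 on the log2 scale (SE 0.10, adjusted p = 0.419 in edgeR). Of the 8 kinin and mineralocorticoid genes, 2 were tested and neither passed an unadjusted p under 0.01.

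Downstream of both receptor types, 29 genes of Gq and G12/13 signaling were tested, 14 with a higher and 15 with a lower mean log2 level and a median of -0.02. Rock2, a kinase that RhoA activates, had the higher level in knockouts: 49.6 ± 6.03 CPM in ac-WT and 63.2 ± 8.13 CPM in ac-CYB5R3-KO hearts (log2 fold change 0.35, SE 0.11, edgeR adjusted p = 0.201). Rgs2, which speeds the inactivation of Gq, was at 21.1 ± 5.63 and 15.2 ± 1.84 CPM (log2 fold change -0.47, SE 0.15, edgeR adjusted p = 0.211). The other 27 genes, among them the Gq subunit Gnaq and the phospholipase C genes, did not pass an unadjusted p under 0.01.

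Of 12 genes known to respond to endothelin or angiotensin, 1 passed an unadjusted p under 0.01. It was Rcan1, whose transcription the phosphatase calcineurin induces, at 115.1 ± 33.01 CPM in ac-WT and 186 ± 51.4 CPM in ac-CYB5R3-KO hearts (log2 fold change 0.69, SE 0.22, edgeR adjusted p = 0.211). All 6 knockouts were above the control median and 5 above the highest control. The other 11, which include Ccn2, Nppa and Nppb, did not pass that threshold. At an unadjusted p under 0.05 there were 3 of the 12, against 14.6% of all genes: Rcan1 and, with lower levels in the knockouts, Fos and Egr1. The log2 fold change was -1.29 for Fos (edgeR adjusted p = 0.249) and -0.88 for Egr1 (edgeR adjusted p = 0.335).

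Of 12 known regulators of Edn1 transcription, 1 passed an unadjusted p under 0.01. Klf4, a flow-responsive factor of endothelial cells, was at 57.1 ± 17.96 CPM in ac-WT and 32.1 ± 4.37 CPM in ac-CYB5R3-KO hearts (log2 fold change -0.83, SE 0.19, edgeR adjusted p = 0.145). All 6 knockouts were below the control median and 3 below the lowest control. At an unadjusted p under 0.05 there were 4 of the 12, against 14.6% of all genes, and all 4 had lower levels in the knockouts. They were Klf4, its relative Klf2, which represses Edn1 under laminar flow, and Fos and Jun, which form the activator AP-1. Control hearts 1, 2 and 3 held the highest levels of all 4 genes. Controls 4, 5 and 6 were at 74.0 to 101.8 CPM for Klf2, 17.5 to 56.3 CPM for Fos and 52.4 to 68.8 CPM for Jun. They overlapped the knockouts, at 52.35 to 123.0, 11.65 to 51.7 and 44.9 to 68.8 CPM. The adjusted p in edgeR was 0.295 for Klf2, 0.249 for Fos and 0.288 for Jun. Gata4, Hif1a, Smad3 and the other 5 did not pass either threshold.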

How the data were processed

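Whole-heart RNA was sequenced from a stranded total RNA kit with 75 bp unpaired reads. The authors deposited 1 table of raw read counts per gene and sample, with no normalization. Per the labels, the submitters' processing notes name STAR, featureCounts and GRCm39, whereas the study's methods name mm9 and Cufflinks. The strand setting and gene annotation behind the counts are not given in the sources used here. Total counts were 43393183 to 53754284 per sample.

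Genes were filtered with filterByExpr (minimum count 10), leaving 17847 of 53700, scaled by TMM and fitted with edgeR 4.0.16 in R 4.3.3 (two-sided quasi-likelihood test, Benjamini-Hochberg over all tested genes). The biological coefficient of variation was 26.5%. The samples are labelled as separate hearts. Alternatives were DESeq2 1.42.0, limma-voom 3.58.1, total counts, other filters, a replicate block, 1 surrogate variable (sva 3.50.0) and left-out hearts. Total counts for the variation of Edn1 and coding lengths for the ratios were chosen after seeing the data. Likeness used log2 CPM with a prior count of 2. CPM per kb and coding stretches used GENCODE exons of NCBIM37, which held 57.8% of the table's identifiers and need not match the annotation counted.

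The 8 genes, the pathway and marker lists and the tests were chosen with earlier results of these data known. The text names the 8 genes, Cyb5r3, the direct counterparts of the 8 genes, the list genes with an unadjusted p under 0.01 (at most 6 a list) and the 5 genes most like Edn1 over the 12 hearts. Klf2, Fos, Jun, Egr1, Cma1, Alb and 4933431K23Rik were added after their values were seen. One red blood cell marker was not matched. Some genes of the lists are not reported here by name. Protein sequences were not used here.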

Additional observations from a re-analysis of the deposited data

How the results depend on the processing

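The log2 fold change of Edn1 was 0.53 to 0.65 when each heart was left out and 0.87 with total counts, and its sign, fixed by the choice of genes, is no sign of stability. The number of the 8 genes under an unadjusted p of 0.01, 2 with edgeR, was 5 with DESeq2 and with no filter, 1 without both ac-WT hearts 2 and 3, 3 with the replicate block, and 1 (without ac-CYB5R3-KO heart 4) to 4 (without ac-CYB5R3-KO heart 6) otherwise. At an adjusted p under 0.05 it was 2 with DESeq2 and 0 in every other fit.

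Over all genes, 820 passed an unadjusted p under 0.01 with edgeR. This became 1238 with DESeq2, 426 with total counts, 376 with 1 surrogate variable, 426 without ac-WT hearts 2 and 3, and 463 to 1169 with single hearts left out. The 18 genes at an adjusted p under 0.05 became 451 with DESeq2, 2 with limma-voom, 8 with total counts, 35 with no filter, 3 with 1 surrogate variable, 7 without ac-WT hearts 2 and 3, and 2 to 38 with single hearts left out. Of the 70 other pathway genes, the number higher became 0 with 1 surrogate variable and without ac-WT hearts 2 and 3, and 0 to 3 with single hearts left out; the number lower became 0 with total counts, 5 with no filter and 1 to 4 with single hearts left out; and 2 passed an adjusted p under 0.05 with DESeq2 and 0 to 1 with single hearts left out. Cyb5r3 kept its direction, with log2 fold changes of -1.17 (adjusted p = 0.0561, limma-voom) and -1.03 (adjusted p = 0.315, total counts), and -1.31 to -1.08 with single hearts left out, where 7 of 12 edgeR fits lost the adjusted call (without ac-WT heart 3 or 5, or any of ac-CYB5R3-KO hearts 1 to 5). The order of levels kept 5 of 7 neighbour pairs with coding in place of exon length, where Ece1 came above Ace and Edn1 above Agt, and 4 to 6 with single controls left out. With total counts, 1 of the 5 genes most like Edn1 stayed. The causes were not tested.

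The hearts were from different mice, and the labels do not say whether the replicate numbers pair them. Deviations of same-numbered hearts correlated at -0.08 to 0.35 (mean 0.14, 6 pairs), against a mean of -0.03 over 30 others. In the fit with a replicate block, Edn1 had a log2 fold change of 0.58 and Cyb5r3 -1.18 (edgeR adjusted p = 0.100), and 2 genes over all passed an adjusted p under 0.05.

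Edn3, at 10 to 112 counts, is limited by depth, and Ren1 and Agtr2 were at or near 0 counts, so small differences in them could not be detected.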
